A study of Mus musculus with 3 samples.

Results

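Levels of 8 genes that encode proteins of peripheral myelin, Mbp, Pmp22, Mag, Prx, Cnp, Mal, Pllp and Ncmap, were read from single-cell libraries of mouse dorsal root ganglia. The genes were chosen by name among the 31053 genes of the matrices, and each symbol matched 1 gene. Among the cells kept after filtering, they held 0.822% of all UMIs in the naive library, 0.9796% in the day 7 library and 0.829% in the day 14 library. A UMI, or unique molecular identifier, is a tag that lets reads of the same captured RNA molecule be counted once. Levels are given as CPM, the UMIs of a gene per 1000000 UMIs that the cells of a class hold in a library. UMIs here mark the 3′ ends of RNAs, so levels are compared between cells and libraries for each gene, not between genes.

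The ganglia came from male C57BL/6J mice in postnatal week 13 with no other allele or agent named. One library was made from naive, untreated mice, one 7 days and one 14 days after spared nerve injury, an operation in which some branches of the sciatic nerve are cut and another is left whole. The injury was made on both sides. Each library pooled 8 ganglia, L3 and L4 of both sides, from 2 mice and these cannot be told apart. With 1 library per condition no difference between conditions could be tested, and every interval given below is a 95% interval that covers counting error only.

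Schwann cells wrap large axons of peripheral nerve in many turns of membrane. In compact myelin the turns are held together by proteins such as those of Mbp and Pmp22, while channels of non-compact myelin, the inner membrane that faces the axon and the outer membrane that faces the basal lamina carry proteins such as those of Mag, Cnp and Prx. After a nerve is cut, Schwann cells that have lost their axon lower their myelin genes and take on a repair state. The cell bodies of the axons lie in the ganglion, far from the cut, among satellite glia, Schwann cells, vessels and immune cells.

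In mouse build GRCm38 with the GENCODE vM21 annotation all 8 are protein-coding. Prx (ENSMUSG00000053198) lies at chr7:27499324-27520214 on the plus strand and Mag (ENSMUSG00000036634) at chr7:30899176-30914873 on the minus strand. Pmp22 (ENSMUSG00000018217) lies at chr11:63128982-63159547 and Cnp (ENSMUSG00000006782) at chr11:100574904-100591729, both on the plus strand. Mal (ENSMUSG00000027375) lies at chr2:127633226-127656695, Pllp (ENSMUSG00000031775) at chr8:94674894-94696278 and Ncmap (ENSMUSG00000043924) at chr4:135369576-135398227, all on the minus strand. The identifier of Mbp is ENSMUSG00000041607. Of the 8 genes, 5 overlap a gene on the opposite strand (Mbp, Prx, Cnp, Pllp and Ncmap), and whether counting used the strand was not given in the sources used here.

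The promoters of 4 genes are shown as examples of 3 patterns over the cell classes: Prx was found mainly in myelinating Schwann-like cells, Mal and Pllp were also found in endothelial-like cells, and Cnp was found across glia. The sequences are the bases before the RefSeq transcription start in build GRCm38.p6, 5′ to 3′ on the strand of the gene, without bases that GENCODE places in an exon. The Prx promoter is chr7:27499074-27499323 on the plus strand, that of Cnp is chr11:100574689-100574903 on the plus strand, that of Mal is chr2:127656696-127656945 on the minus strand and that of Pllp is chr8:94696279-94696492 on the minus strand. Capitals mark matches to the motifs searched.
Prx: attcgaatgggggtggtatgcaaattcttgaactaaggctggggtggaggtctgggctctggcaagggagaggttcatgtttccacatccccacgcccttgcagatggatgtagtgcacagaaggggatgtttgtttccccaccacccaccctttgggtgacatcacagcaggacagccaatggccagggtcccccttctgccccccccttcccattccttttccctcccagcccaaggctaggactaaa
Mal: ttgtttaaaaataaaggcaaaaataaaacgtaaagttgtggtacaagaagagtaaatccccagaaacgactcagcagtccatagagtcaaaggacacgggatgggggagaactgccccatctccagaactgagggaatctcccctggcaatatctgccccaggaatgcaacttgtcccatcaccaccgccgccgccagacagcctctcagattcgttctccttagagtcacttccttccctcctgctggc
Pllp: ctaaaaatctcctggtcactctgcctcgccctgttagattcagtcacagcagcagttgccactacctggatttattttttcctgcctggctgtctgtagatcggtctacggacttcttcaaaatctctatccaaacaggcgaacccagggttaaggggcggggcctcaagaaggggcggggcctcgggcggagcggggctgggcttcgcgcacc
Cnp: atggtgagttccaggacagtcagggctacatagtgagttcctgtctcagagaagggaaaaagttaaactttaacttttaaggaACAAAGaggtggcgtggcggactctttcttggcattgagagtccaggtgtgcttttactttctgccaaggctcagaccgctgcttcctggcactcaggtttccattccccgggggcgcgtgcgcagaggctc

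Entries in the RefSeq promoter table were found for 7 of the 8 genes, all but Mbp. The 250 bases before each of their starts were searched on both strands for ACAAAG and ACAATG, which Sox10 and its relatives bind, GTGGGCG and GTGGGAG, which resemble sites of Egr2, and CCGGAA, a core of ETS factor sites. ACAAAG was found for 2 genes, Cnp and Mag, and in 16.5% of 32851 promoter windows of the same length. A gene was counted when any of its windows held a match, and Pmp22, Mag and Ncmap had more than 1 window. Counts of genes are therefore not on the same scale as shares of windows. CCGGAA was found in 1 of the windows of Pmp22 and in 12.0% of all windows. The other motifs were found for none of the 7 genes, and in 10.7% (ACAATG), 7.02% (GTGGGCG) and 8.25% (GTGGGAG) of all windows. The windows of Prx, Mal, Pllp and Ncmap held no match to any of the 5 motifs. A match of letters is a description only, and the absence of one says nothing of the factors.

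The matrices held 3748, 3281 and 4908 barcodes and 23107376, 22343246 and 36550911 UMIs for the naive, day 7 and day 14 libraries. Cells passed with 500 genes or more and with mitochondrial UMIs at 20% or less, and 90 of them were called as doublets and dropped, which left 3123, 2650 and 3799 cells. Between 1 and 6 barcodes were shared by any pair of libraries. As a check of the labels, genes known to be switched on in axotomised neurons were higher in neuron-like cells of both injured libraries: Atf3 stood at 12.6 CPM in the naive library, 172 at day 7 and 108 at day 14, Sprr1a at 7.37, 653 and 272 CPM, and Gal at 31.0, 517 and 221 CPM. In the day 7 library neuron-like cells were shallow, with a median of 1884 UMIs against 64113 in the naive and 80938 in the day 14 library.

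Cells were placed in 11 classes by markers that exclude the 8 myelin genes. Myelinating Schwann-like cells were those led by Drp2, Cldn19, Gjb1, Egr2, Gldn and Dhh. They numbered 1120, 1009 and 1445 cells, with a median of 2583, 3734 and 3741 UMIs per cell. A class cut from a score is a range rather than a type: 207 of these 3574 cells (5.79%) had a score within 10% of the threshold. Within the class the median score was 0.521 for its own markers, 0.141 for fibroblast markers and 0 for the markers of the other 9 classes. Drp2 was seen in 90.2 to 94.0% of its cells and Cldn19 in 91.2 to 95.9%. Shares were lower for Egr2, at 47.5 to 63.1%, and for Gjb1, at 31.1 to 37.9%. These genes are markers of the gate, so their shares do not test the name. The gate left 353, 258 and 427 cells with markers of more than 1 class and 146, 88 and 151 with too few markers, and these were put in no class.

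Both genes of compact myelin were near-universal in myelinating Schwann-like cells. Mbp, whose basic protein holds the cytoplasmic faces of the membrane together, stood at 12601 CPM (interval 12482 to 12721) in the naive library, 12362 CPM (12257 to 12467) at day 7 and 11353 CPM (11268 to 11438) at day 14. A UMI of Mbp was seen in 99.8%, 100% and 99.7% of the cells. Pmp22, a tetraspan protein whose gene dosage is linked to inherited neuropathies, stood at 16461 CPM (16325 to 16598), 15003 CPM (14888 to 15119) and 14650 CPM (14554 to 14747). The naive library was the highest for both genes and the day 14 library the lowest.

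Among genes of the non-compact and axon-facing membrane, Mag, Cnp and Ncmap each stood lowest at day 14. Mag, which encodes an adhesion receptor of the membrane facing the axon, stood at 504 CPM (480 to 528) in the naive library, 471 CPM (451 to 492) at day 7 and 405 CPM (389 to 422) at day 14. Cnp, an enzyme of the cytoplasmic channels of non-compact myelin, stood at 1866 CPM (1821 to 1913), 1929 CPM (1887 to 1970) and 1832 CPM (1798 to 1866), and its naive interval overlapped both others. Ncmap, which encodes a membrane protein named for non-compact myelin, stood at 2272 CPM (2221 to 2323), 2334 CPM (2289 to 2380) and 2105 CPM (2069 to 2142).

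Prx stands on the outer side of the sheath, where periaxin binds the Drp2 protein and links the membrane to the basal lamina. It stood at 2390.2 CPM (2339 to 2443), 2287 CPM (2243 to 2333) and 2155 CPM (2118 to 2192), highest in the naive library.

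Mal and Pllp encode related proteins of lipid-rich membrane that take part in sorting to myelin. Mal was the only 1 of the 8 genes with its lowest level in the naive library, at 1828 CPM (1782 to 1874) against 2076 CPM (2033 to 2120) at day 7 and 2030.5 CPM (1995 to 2067) at day 14. Pllp stood at 954 CPM (922 to 988), 969.9 CPM (941 to 999.7) and 947 CPM (923 to 972), and its 3 intervals overlapped.

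**Figure D1:**
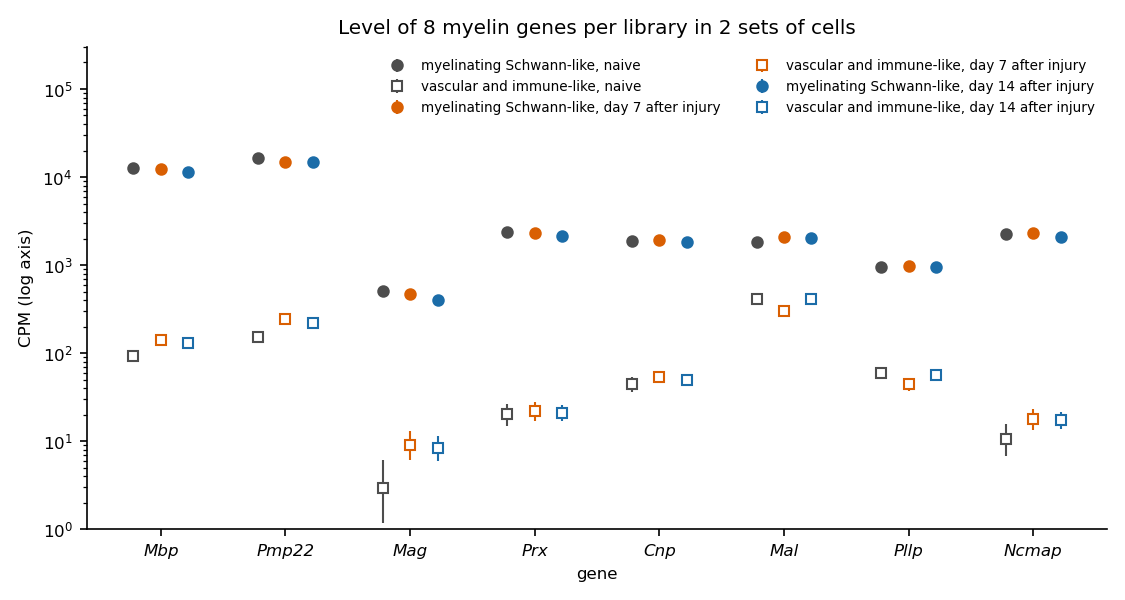
Level in CPM (log axis) of the 8 genes, 3 libraries each, in myelinating Schwann-like cells (filled circles) and in vascular and immune-like cells (open squares), with 95% Poisson intervals that are smaller than the symbol where not seen. Filled symbols of a gene lie close together, while the gap to the open squares is narrowest for Mal, at 1828 against 407 CPM in the naive library.

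The share of cells in which the scarcer genes were seen moved with depth. Mag was seen in 69.7% of naive, 76.9% of day 7 and 73.5% of day 14 myelinating Schwann-like cells, so that by this share the naive library was lowest although its CPM was highest. When cells were thinned to 1500 UMIs apiece, without the 145, 32 and 51 shallower ones, the shares were 51.4%, 49.0% and 44.8%, in the order of the CPM. Pllp was seen in 87.9%, 94.6% and 93.0% of the cells before and in 74.1%, 75.8% and 74.4% after thinning. All 8 genes were seen together in 57.4%, 71.3% and 66.3% of the cells, and no cell of the class lacked all of them. After thinning, the expected number of the 8 genes seen per cell was 6.96, 6.98 and 6.87.

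Levels varied among the cells of the class as well. Per 10000 UMIs of a naive cell the 10th percentile, median and 90th percentile were 55.4, 119 and 179 for Mbp and 78.6, 146 and 271 for Pmp22. Mag had a median of 4.32 per 10000 and a 10th percentile of 0 in the naive library, and the latter was 0 at day 7 and day 14 also. The coefficient of variation over cells was between 0.369 and 0.400 for Mbp in the 3 libraries, and between 0.481 and 0.540 for Pmp22. Part of this spread is counting error, which grows as a gene gets scarcer.

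The injured libraries were then set against the naive library, the comparison that asks whether myelin genes of the ganglion differ after a distant nerve injury. At day 7 the log2 CPM ratio over naive in myelinating Schwann-like cells was -0.03 for Mbp, -0.13 for Pmp22, -0.10 for Mag, -0.06 for Prx, 0.05 for Cnp, 0.18 for Mal, 0.02 for Pllp and 0.04 for Ncmap. None of the 8 genes was 1.5-fold higher or lower, a size that 3.63% of 10145 genes reached upward and 2.78% downward in this comparison. A cell that lowered the markers of the gate could leave the class, and the ratios at day 7 and day 14 do not cover such cells. The median ratio was -0.002 over the 8 genes and 0.005 over all genes tested, which are those with at least 30 UMIs over both libraries.

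At day 14 the ratio over naive was -0.15 for Mbp (interval -0.17 to -0.13), -0.17 for Pmp22 (-0.18 to -0.15), -0.31 for Mag (-0.40 to -0.22), -0.15 for Prx (-0.19 to -0.11) and -0.11 for Ncmap (-0.15 to -0.07). It was -0.03 for Cnp (-0.07 to 0.02) and -0.01 for Pllp (-0.07 to 0.05), whose intervals included 0, and 0.15 for Mal (0.11 to 0.20). The ratio furthest from 0 was that of Mag, at 0.805 of the naive level. Again none of the 8 genes reached 1.5-fold, against 5.57% of 10508 genes upward and 3.64% downward. The median was -0.13 over the 8 genes and 0.01 over all genes, and 13.7% of all genes had a lower ratio than Mag. Both comparisons share the naive library, and how far 2 naive libraries would differ was not measured.

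**Figure D2:**
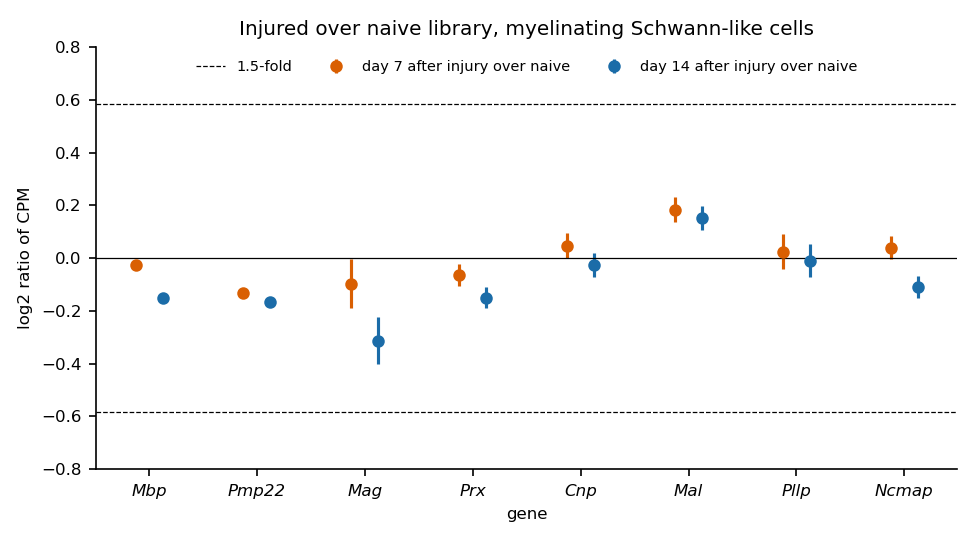
Log2 ratio of the CPM for each of the 8 genes in myelinating Schwann-like cells, day 7 (orange) and day 14 (blue) over the naive library, with exact 95% intervals for counting error and dashed lines at 1.5-fold. All points lie between the dashed lines, from -0.31 for Mag at day 14 to 0.18 for Mal at day 7.

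Most UMIs of the 8 genes came from myelinating Schwann-like cells, which were 35.9 to 38.1% of the cells. They held 87.3 to 93.3% of the UMIs of Ncmap, 84.6 to 90.9% of Prx, 81.8 to 89.4% of Mag, 81.0 to 87.1% of Pllp, 80.6 to 87.5% of Mbp and 76.5 to 83.6% of Pmp22. The share was smaller for Mal, at 63.2 to 73.0%, and for Cnp, at 53.4 to 67.2%. Satellite glial-like cells held 13.9 to 23.4% of the UMIs of Cnp and endothelial-like cells 7.56 to 10.4% of those of Mal.

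The level of free RNA was read from cells of vessels and blood, called vascular and immune-like here, since these cells make no myelin. This set of endothelial, mural, macrophage, T or NK, B and neutrophil-like cells numbered 509, 556 and 820 cells, with a median of 3253, 4276 and 3929 UMIs. Over the 8 genes its median level was 0.877% of the myelinating Schwann-like level in the naive library, 1.77% at day 7 and 1.78% at day 14. Of the genes, 6 lay between 0.461 and 2.76% of the myelinating level in every library, though not at 1 ratio, since in the naive library Ncmap lay at 0.461% and Cnp at 2.35%. Mal, at 22.3%, 14.5% and 20.2%, and Pllp, at 6.23%, 4.59% and 6.02%, lay above. Small classes of the set could differ from the pool. Cnp lay at 7.08%, 11.7% and 20.9% in 13, 4 and 19 B-like cells, from 3, 2 and 22 UMIs. Mbp lay at 4.93%, 2.53% and 1.36% in 9, 19 and 34 T or NK-like cells, from 13, 23 and 16 UMIs. Without the 4, 15 and 18 cells of the set that held UMIs of at least 2 myelinating markers, its median was 0.777%, 1.31% and 1.59%. Macrophage-like cells numbered 65, 210 and 247 in the set. How much of each value is free RNA, or follows from the make-up of the set, was not tested. In mural-like cells alone, the cells of vessel walls other than endothelium, the 8 genes lay between 0 and 1.91%, Mal and Pllp included. The median over the 8 genes in mural-like cells was 0.765%, 0.435% and 0.784%.

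**Figure D3:**
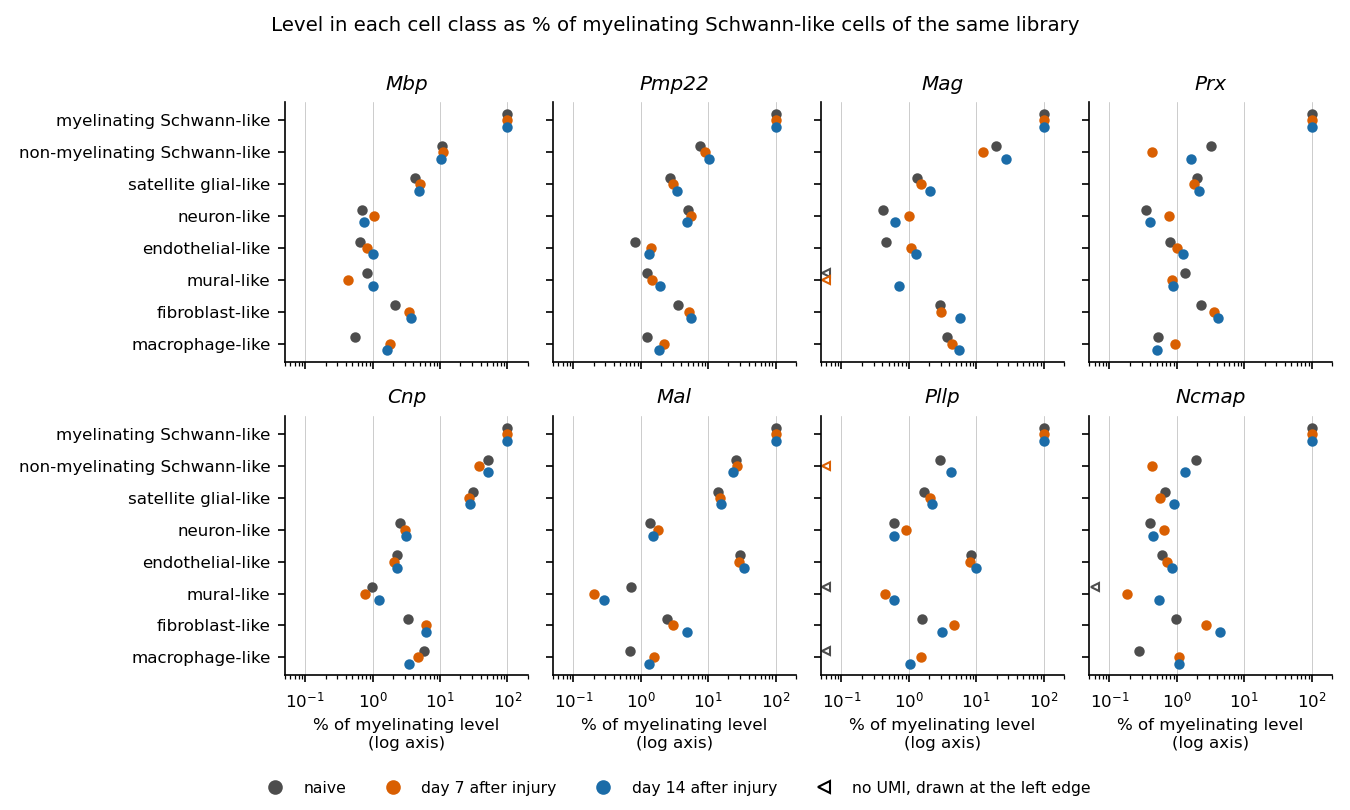
Level of each gene in 8 cell classes as a percentage of its level in myelinating Schwann-like cells of the same library (log axis), 1 point per library, with classes at 0 UMIs drawn as open triangles at the left edge. Cnp and Mal reach 37.3 to 52.0% and 23.5 to 26.6% in non-myelinating Schwann-like cells, and Mal reaches 28.3 to 33.9% in endothelial-like cells.

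The order of the classes differed from gene to gene. For Mbp it ran from myelinating to non-myelinating Schwann-like, satellite glial-like and fibroblast-like cells, whose ranges over the 3 libraries did not overlap, and then to macrophage, mural, endothelial and neuron-like cells, where each neighbour's range overlapped the next. For Pmp22 neuron-like and fibroblast-like cells followed the Schwann-like classes, with overlapping ranges. Both orders depended on 4 fibroblast-like cells at day 7 and 7 at day 14 with UMIs of at least 2 myelinating markers. Without them Pmp22 stood at 451 and 495 CPM in fibroblast-like cells, below the neuron-like range of 717 to 833 CPM. Mbp then stood at 139 and 156 CPM there, within the macrophage-like range of 69.0 to 223 CPM with all cells. Without such cells macrophage-like cells held Mbp at 69.0, 101 and 149.5 CPM, a range that 139 CPM lay within and 156 CPM above. For Cnp only the neighbouring fibroblast-like and macrophage-like ranges overlapped.

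Prx and Ncmap were low in all other classes. Outside that class Prx lay at 0.349 to 4.01% and Ncmap at 0 to 4.35% of the myelinating level in the 7 other classes with at least 40 cells in each library. For both genes fibroblast-like cells came next, with 55.4 to 86.4 CPM of Prx and 22.1 to 91.5 CPM of Ncmap. Without 4 cells at day 7 and 7 at day 14 that held UMIs of at least 2 myelinating markers, Prx stood at 46.3 and 26.6 CPM in fibroblast-like cells and Ncmap at 23.1 and 23.8 CPM. With all cells the ranges of neighbouring classes below myelinating Schwann-like cells overlapped for both genes, except those of fibroblast-like and satellite glial-like cells for Prx, which overlapped without such cells, at 26.6 to 55.4 and 20.7 to 39.5 CPM.

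Non-myelinating Schwann-like cells, which ensheathe thin axons without compact myelin, carried a part of the set. There were 98, 45 and 92 of them, led by Scn7a, Csmd1, Rxrg, Gfra3, Ncam1 and L1cam, and 17.9% lay near the threshold. Cnp stood at 969.9 CPM (833 to 1123), 719.6 CPM (564 to 905) and 929.5 CPM (815 to 1056), or 52.0%, 37.3% and 50.7% of the myelinating level. Mal stood at 469, 552 and 477 CPM and Mag at 98.1, 59.1 and 110.3 CPM from 18, 6 and 28 UMIs. Mbp stood at 1357, 1350.4 and 1178 CPM and Pmp22 at 1237, 1331 and 1497 CPM, or 10.4 to 10.9% and 7.51 to 10.2% of the myelinating level. Prx, Pllp and Ncmap had 0 to 14 UMIs each, and Pllp had none at day 7, which allows up to 29.6 CPM. The order of genes relative to the myelinating level thus ran from Cnp to Prx, Pllp and Ncmap. Without the 3, 4 and 7 cells that held at least 2 of the myelinating markers, Cnp lay at 50.5%, 38.8% and 48.3% and Mal at 25.5%, 25.8% and 22.5%.

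Satellite glial-like cells, which enclose the cell bodies of sensory neurons and make no myelin, carried Cnp and Mal. Cnp stood at 577 CPM (555 to 598), 517 CPM (494 to 541) and 515 CPM (495 to 536), or 30.9%, 26.8% and 28.1% of the myelinating level. It was seen in 87.9%, 90.4% and 92.8% of 688, 418 and 554 cells, and in 56.0%, 52.6% and 52.8% once thinned to 1500 UMIs. In vascular and immune-like cells it was seen in 15.5%, 20.7% and 19.1%, and in 5.99%, 7.10% and 6.83% once thinned. Mal stood at 256, 309 and 311 CPM, or 14.0%, 14.9% and 15.3%. Mbp lay at 4.29 to 5.01% and Pmp22 at 2.76 to 3.44%, each above the vascular and immune-like level in its library. Without the 140, 89 and 147 cells with UMIs of at least 2 myelinating markers, Cnp lay at 28.9%, 23.5% and 27.4% and Mal at 13.5%, 14.2% and 15.2%.

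Endothelial-like cells carried Mal and, at a lower level, Pllp. Mal stood at 547 CPM (513 to 583) in the naive library, 589 CPM (551 to 628) at day 7 and 688 CPM (657 to 720) at day 14, highest at day 14. It was seen in 73.0%, 73.9% and 84.5% of 296, 207 and 328 cells, and in 47.3%, 47.4% and 57.0% once thinned. Pllp stood at 80.6 CPM (67.9 to 95.03), 79.1 CPM (65.8 to 94.3) and 92.6 CPM (81.5 to 104.7), or 8.45%, 8.16% and 9.77% of the myelinating level, and its intervals overlapped. In mural-like cells of the same libraries Mal stood at 12.9, 4.26 and 5.72 CPM and Pllp at 0, 4.26 and 5.72 CPM, where the count of 0 allows up to 7.77 CPM. Endothelial-like cells thus came next to myelinating Schwann-like cells in the order of classes for Mal and for Pllp. The endothelial range of Mal overlapped that of non-myelinating Schwann-like cells and lay above that of satellite glial-like cells, 256 to 311 CPM.

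The other genes of myelinating Schwann-like cells did not share this level in endothelial-like cells. Cnp lay at 2.07 to 2.31% of the myelinating level and Mbp, Pmp22, Mag, Prx and Ncmap at 0.451 to 1.40%. Drp2 lay at 5.68, 19.0 and 12.1 CPM and Cldn19 at 2.84, 9.49 and 9.55 CPM, against at least 1237 and 842 CPM in myelinating Schwann-like cells. Without the 4, 10 and 11 cells that held UMIs of at least 2 myelinating markers, Mal lay at 29.6%, 27.4% and 34.0% and Pllp at 8.22%, 7.85% and 9.54% of the myelinating level. Cldn5, which encodes a tight junction protein of endothelium, was seen in 0.536 to 1.87% of myelinating Schwann-like cells. Endothelial-like cells with a UMI of Mal were deeper than those without, with a median of 5129 against 2625 UMIs in the naive library. Their Mbp stood at 84.7 against 58.6 CPM there, 106 against 61.4 CPM at day 7 and 116 against 69.7 CPM at day 14. These levels came from 129 against 14, 149 against 11 and 297 against 12 UMIs of Mbp, and no interval was computed for them.

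Neuron-like cells carried Pmp22 above the rest of the set. It stood at 833 CPM (813 to 852), 823 CPM (800.4 to 845) and 717 CPM (702 to 732), or 5.06%, 5.48% and 4.89% of the myelinating level, while the other genes lay at 0.349 to 3.09%. The 125, 204 and 138 neuron-like cells held 9.43%, 6.66% and 8.07% of all UMIs of Pmp22. At day 7, where these cells were shallow, Mbp was higher in them at 127 CPM against 89.0 in the naive and 85.8 in the day 14 library, and Prx stood at 17.5 against 8.33 and 8.61 CPM. The part of depth in this was not tested.

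Counts of genes that differed by 1.5-fold were made in other classes too, for the myelin genes with at least 30 UMIs over both libraries. In non-myelinating Schwann-like cells 4 of the 8 were tested at day 7 and 5 at day 14, and 0 passed in either direction, where 9.52% of all genes tested were higher and 13.7% lower at day 7 and 9.66% higher and 11.2% lower at day 14. In satellite glial-like cells all 8 were tested and 0 passed, against 4.09% higher and 2.8% lower at day 7 and 6.21% higher and 3.67% lower at day 14. In endothelial-like cells 7 were tested, and Pmp22 alone was past 1.5-fold, higher at day 7, against 4.94% of all genes higher and 5.5% lower. At day 14 the count was 0, against 7.51% higher and 6.13% lower. For Pmp22 in endothelial-like cells at day 7, 5 of the 207 cells held 48.0% of its UMIs, and the ratio was 0.62 with all cells and 0.13 without the 10 cells that held myelinating markers.

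A few cells held much of the myelin RNA of some other classes. In macrophage-like cells Mbp stood at 69.0 CPM from 11 UMIs in the naive library, 223 CPM from 230 UMIs at day 7 and 186 CPM from 189 UMIs at day 14. At day 7, 5 of 210 cells held 59.6% of these UMIs. Without the 5 cells with at least 2 myelinating markers Mbp stood at 101 CPM there, and without 4 such cells at 149.5 CPM at day 14. Mag and Cnp lay above the other genes in macrophage-like cells: Mag at 3.73%, 4.33% and 5.58% of the myelinating level, from 3, 21 and 23 UMIs, and Cnp at 5.71%, 4.78% and 3.43%. Without the same cells they lay at 3.73%, 3.89% and 5.73% for Mag and at 5.71%, 3.38% and 3.20% for Cnp. In fibroblast-like cells Mbp stood at 269, 433 and 416 CPM, and at 269, 139 and 156 CPM without 0, 4 and 7 such cells. In the naive library, where none was left out, 5 of the 84 fibroblast-like cells held 71.2% of the Mbp UMIs.

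**Figure D4:**
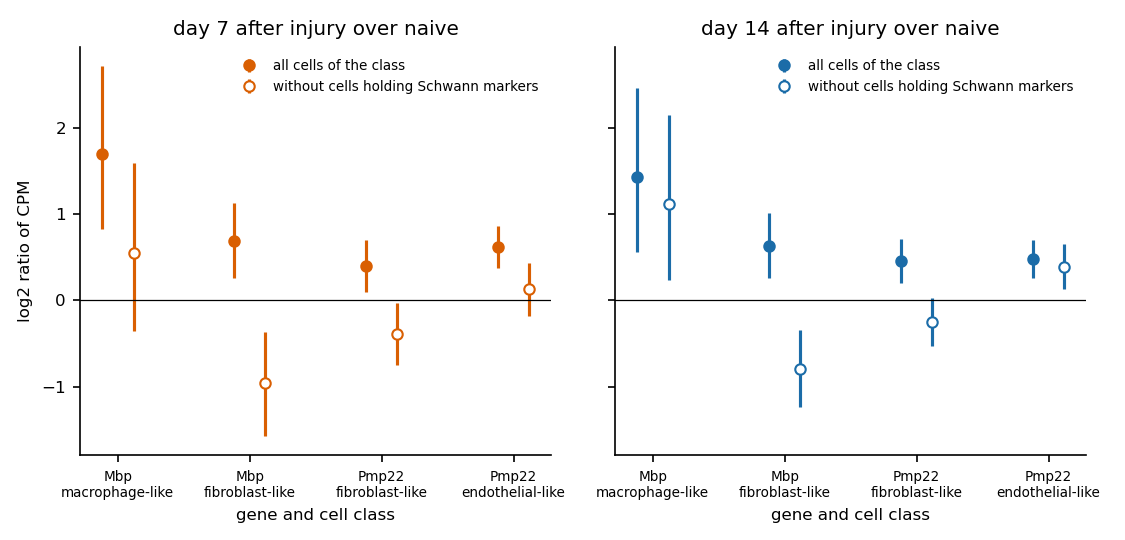
Log2 ratio of the CPM over the naive library at day 7 and day 14 for 4 pairs of gene and class, with all cells of the class (filled) and without cells holding UMIs of at least 2 of the 6 myelinating Schwann markers (open), with exact 95% intervals for counting error. The ratios of fibroblast-like cells lie above 0 with all cells and below 0 without those cells, as for Mbp at day 7, at 0.69 and -0.96. Without them the interval of Pmp22 in fibroblast-like cells at day 14 reaches 0. No naive fibroblast-like cell was left out, although 5 of the 84 held 71.2% of the Mbp UMIs.

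Other genes of the myelin pathway were read in myelinating Schwann-like cells from 3 lists, on which no test was run. Of 20 other myelin and myelin upkeep genes 18 had enough UMIs, and 0 were past 1.5-fold at either time, where 3.63% of all genes were higher and 2.78% lower at day 7 and 5.57% and 3.64% at day 14, with a median ratio of -0.01 at day 7 and -0.07 at day 14. S100b, which encodes a calcium-binding protein of glia, stood at 1072, 762 and 748 CPM with ratios of -0.49 and -0.52. Of 9 genes that promote myelination all were tested and 0 passed against the same shares, with medians of 0.11 and 0.19, and Sox10, the factor that drives Schwann cell identity, stood at 462, 418 and 409 CPM. S100b and Sox10 are named as examples chosen after their values were seen.

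Inhibitors of myelination and genes of repair Schwann cells formed the last list, of 11 genes. Of these 5 had enough UMIs. At day 7 none passed, and at day 14, where 5.57% of all genes tested were higher, 2 were higher, Jun and Id2. The other genes tested had ratios at day 14 of 0.008 for Sox2, 0.14 for Pou3f1 and -0.39 for Notch1 (interval -0.64 to -0.14). Jun, the factor of the repair state, stood at 112, 158 and 168 CPM with a ratio of 0.59 (interval 0.41 to 0.76) at day 14, just past the threshold of 0.58. Vascular and immune-like cells held it at 127, 193 and 174 CPM. Id2, which encodes an inhibitor of helix-loop-helix factors, stood at 57.1, 79.0 and 93.2 CPM with a ratio of 0.71 (0.47 to 0.95). More Id2 was held by vascular and immune-like cells in each library, at 123, 98.0 and 133 CPM.

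Among the genes whose pattern over classes and libraries was most like the mean of the 8 were Secisbp2l (Pearson r 0.941), Ugt8a (0.937), B3galt2 (0.919) and Fa2h (0.915). The likeness was taken on log2(CPM + 1) over 26 points, each a class of at least 20 cells in a library, which share libraries and depth. Among the 8 genes themselves the r with that mean ran from 0.820 for Mal and 0.856 for Cnp, the genes found most in other classes, to 0.948 for Ncmap. The mean includes each of the 8 genes, so part of their r is built in. Their r cannot be set against those of the other genes.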

How the data were processed

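The authors deposited, for each library, a matrix of UMI counts per gene and barcode, with no normalisation and no cell annotation used here. The submitters' processing notes name Cell Ranger 3.0.2 and build mm10, while the annotation was not given in the sources used here. The gene identifiers matched GENCODE vM21 for 31011 of 31053 rows. The 8 genes, the marker lists and the pathway lists were chosen with earlier results of these data known.

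Doublets were called per library with Scrublet in scanpy 1.11.5 (expected rate 5%, 0.931% called of 9662 cells). Each class score was the mean over its markers of log-normalised counts, scaled to the 90th percentile of cells with a UMI. A class needed a score of at least 0.25 with at least 2 markers, and a second score of at most 0.6 of it. Counts were summed per class and library. Intervals were exact Poisson for CPM, Clopper-Pearson for shares and conditional binomial for ratios, at 95%, for counting error only, and a count of 0 was taken to allow 3 counts. Genes with at least 30 UMIs over both libraries entered counts at 1.5-fold. The scripts were tested on simulated data.

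Named were all 8 genes, genes of the pathway lists past 1.5-fold in the same direction in both injured libraries (none), the 5 genes most alike (1 of them is not reported here), and Atf3, Sprr1a and Gal as a check of the labels. S100b, Sox10, Jun, Id2, Sox2, Pou3f1 and Notch1 were named outside this rule, after their values were seen. Clusters used as an alternative came from leidenalg 0.10.2. Python 3.11.15, numpy 2.4.6, pandas 2.3.3 and scipy 1.17.1 were used. Promoters came from the RefSeq table of GRCm38.p6. Alternatives changed the filter on cells, doublets, the gate and its markers, the normalisation, the depth and the free RNA.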

Additional observations from a re-analysis of the deposited data

Results flagged for a closer look

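In 4 pairs of gene and class the log2 CPM ratio over naive lay on the other side of 0 from that of myelinating Schwann-like cells at both times with none of the counting intervals of either class reaching 0, and with 1 library per condition the difference was not tested. Pmp22 in endothelial-like cells had ratios of 0.62 at day 7 and 0.48 at day 14. Without cells that held UMIs of at least 2 myelinating Schwann markers they were 0.13 (interval -0.18 to 0.44) and 0.39 (0.13 to 0.65).

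Mbp in fibroblast-like cells had ratios of 0.69 and 0.63, and Pmp22 in the same cells 0.40 and 0.46. Without 4 and 7 cells that held such markers, the ratios of Mbp were -0.96 (interval -1.57 to -0.36) and -0.79 (-1.23 to -0.35). Those of Pmp22 were -0.39 (-0.74 to -0.03) and -0.25 (-0.53 to 0.02), and the last interval included 0. These ratios lay on the same side of 0 as in myelinating Schwann-like cells. No naive cell was left out, although 5 of the 84 held 71.2% of the Mbp UMIs and 68.8% of those of Pmp22. Mbp in macrophage-like cells had ratios of 1.70 at day 7 and 1.43 at day 14, against 11 UMIs in the naive library. Without macrophage-like cells that held such markers they were 0.55 (-0.35 to 1.60) and 1.12 (0.23 to 2.15).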

How the results depend on the processing

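No paired analysis was possible because a single library stands for each condition. Under 20 alternatives none of the 8 genes reached 1.5-fold in myelinating Schwann-like cells at either time. Of 160 ratios of single genes at each time, 154 at day 7 and 150 at day 14 kept their direction. With all cells of a library in place of the class, the median ratio was 0.29 at day 7 and 0.0059 at day 14, which also counts how many cells of each class a library holds. With a filter of 1000 genes or more and mitochondrial UMIs at 10% or less it was -0.18 at day 14. The free RNA level was 0.617% in macrophage-like cells alone in the naive library. At day 7 it was 1.24% in endothelial-like cells alone, 2.56% with doublets kept and 0.435% in mural-like cells alone, and at day 14 it was 1.29% and 0.784% in endothelial-like and mural-like cells alone. The median share of cells with a UMI, 96.7%, 98.5% and 98.0% in the naive, day 7 and day 14 libraries, was 92.3%, 93.6% and 91.9% thinned to 1500 UMIs and 89.6%, 95.1% and 94.1% for at least 2 UMIs. Apart from the choice of cells and depth, the cause of these shifts was not tested. Mural-like cells alone, the subtraction of the mural level and leaving out cells with Schwann markers were chosen after seeing the data. The design has 1 pool of mice per condition, so differences between pools, dissociations and conditions cannot be told apart.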
